A study of Mus musculus with 6 samples.

Results

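The transcripts described here are those of 10 of the 13 protein-coding genes of the mitochondrial genome. The genes are mt-Nd1, mt-Nd2, mt-Nd4, mt-Nd4l and mt-Nd5 of complex I, mt-Cytb of complex III, mt-Co1, mt-Co2 and mt-Co3 of complex IV, and mt-Atp6 of complex V. They are 10 of the 32285 genes in the count matrices, and they were selected by symbol because their counts were higher in Run than in Sed libraries. The Run to Sed ratios are therefore given as a description, with no test. The other 3 mitochondrial protein-coding genes, mt-Nd3, mt-Nd6 and mt-Atp8, were not selected and are given beside them.

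The data are 6 single-nucleus RNA-Seq (snRNA-Seq) libraries from the prelimbic area (PL) of the medial prefrontal cortex of male C57BL/6 mice, each pooled from 3 males that were not brothers. Run males were raised by dams with a running wheel in the cage from postpartum day 2 to 21, and Sed males by dams in standard cages. After weaning, males were group housed (GH) or kept in social isolation (SI), and none had a wheel of its own. Cohort 1 gave 1 RunGH and 1 SedGH library from males chosen by rank and killed the day after their last tube test, a contest for dominance. Cohort 2 gave 1 library each of RunGH, SedGH, RunSI and SedSI from males with no behavioral test. The methods place all tissue at about 4 months of age, whereas the labels read P21, the day of weaning. With 1 library per group and cohort, p-values measure the spread between pooled libraries and not between mice. No mouse can be told from another within a pool.

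The mitochondrial genome is a small circle present in many copies per cell, and it is transcribed inside the mitochondrion from both strands into long precursors that are cut at tRNAs into mRNAs. Its mRNAs encode membrane core subunits of the respiratory chain, whose remaining subunits are encoded in the nucleus. Because the mRNAs stay in mitochondria, they lie outside the nucleus, and in a nucleus preparation they are usually read as a measure of carried-over cytoplasm.

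All 10 selected genes lie on the plus strand of chrM in mm10. The assay primes on poly(A), so reads gather near the 3′ end of each mRNA. The annotated ends are shown for the members with the largest and smallest difference between cohorts (mt-Co2 and mt-Nd5), for the 3 that end without a complete stop codon (mt-Co3, mt-Cytb and mt-Nd4), and for mt-Nd4l, whose end overlaps mt-Nd4. Each is the last 30 bases, 5′ to 3′, from the GENCODE M21 transcripts, and capitals mark the stop codon or the single base left of it, which polyadenylation completes.
mt-Co2: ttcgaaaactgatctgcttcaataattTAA
mt-Nd5: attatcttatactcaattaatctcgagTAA
mt-Co3: tatacgtctccatttattgatgaggatctT
mt-Cytb: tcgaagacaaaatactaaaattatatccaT
mt-Nd4: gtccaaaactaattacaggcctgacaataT
mt-Nd4l: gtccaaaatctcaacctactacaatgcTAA
These ends belong to chrM:7013-7696 for mt-Co2, chrM:11742-13565 for mt-Nd5, chrM:8607-9390 for mt-Co3, chrM:14145-15288 for mt-Cytb, chrM:10167-11544 for mt-Nd4 and chrM:9877-10173 for mt-Nd4l. Each of these genes is a single exon.

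The end of mt-Nd4l and the start of mt-Nd4 share 7 bases, chrM:10167-10173, which are shown in capitals at the start of mt-Nd4.
mt-Nd4 start: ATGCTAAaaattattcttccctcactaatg
The same mRNA carries both reading frames, and mt-Atp8 and mt-Atp6 overlap by 43 bases at chrM:7927-7969 and also share an mRNA. Counts of the members of such a pair depend on how reads in or near the overlap were assigned, and reads that span both genes may be counted for neither. In addition, mt-Atp6 and mt-Co3 share 1 base at chrM:8607, and the end of mt-Nd5 overlaps mt-Nd6, on the other strand, by 14 bases. The nuclear genome also carries copies. On chromosome 1, the 681 bases of Gm28661 at chr1:24614885-24615565 were identical to mt-Co2, and Gm28437 (783 bases), Gm10925 (678 bases), Gm10222 (294 bases) and Gm28439 (876 bases) were identical to stretches of mt-Co3, mt-Atp6, mt-Nd4l and mt-Nd4. Gm29216 matched 98.8% of 492 bases with mt-Co1. None of these copies is listed in the count matrices, and reads that match both places are uncertain. No annotated copy in that stretch matched mt-Nd1, mt-Nd2, mt-Nd5 or mt-Cytb.

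Each droplet has its own barcode, and each captured RNA molecule carries a tag, the unique molecular identifier (UMI). A nucleus was a barcode with 500 to 4000 genes and at least a set number of UMIs for its library, with no limit on mitochondrial UMIs. This gave 5000 to 10226 nuclei per library, with a median of 1637 to 6250 UMIs. Background droplets were the 45000 barcodes that follow the largest 45000 in each library, which hold RNA from the liquid and are far below the nuclei in rank. Their median was 917 UMIs in RunGH and 1112 in SedGH of cohort 1, and 67 to 264 UMIs in cohort 2. Between any pair of libraries, 5 to 26 nucleus barcodes were the same, at most 0.506% of the smaller library. Pyramidal nuclei, the excitatory cells of cortex, made up 75.8% to 84.2% of each library, a share that does not tell which area of cortex was dissected. Levels are UMI counts scaled to a common library total (CPM) unless given per nucleus or per droplet, and intervals cover counting error only.

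In nuclei, the 10 transcripts together made up 351 CPM in RunGH and 145 CPM in SedGH of cohort 1. In cohort 2 they made up 3145 CPM in RunGH, 1135 CPM in SedGH, 3140 CPM in RunSI and 1597 CPM in SedSI. The 4 libraries of cohort 2 all lay above the 2 of cohort 1, and within each cohort and housing condition the Run library was the higher one. In background droplets the same transcripts made up 1879 CPM in RunGH and 721 CPM in SedGH of cohort 1. In cohort 2 the background held 43612 CPM in RunGH, 23716 CPM in SedGH, 44460 CPM in RunSI and 39040 CPM in SedSI. The order of cohorts was the same as in nuclei, and the background of each library lay above its nuclei.

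**Figure D1:**
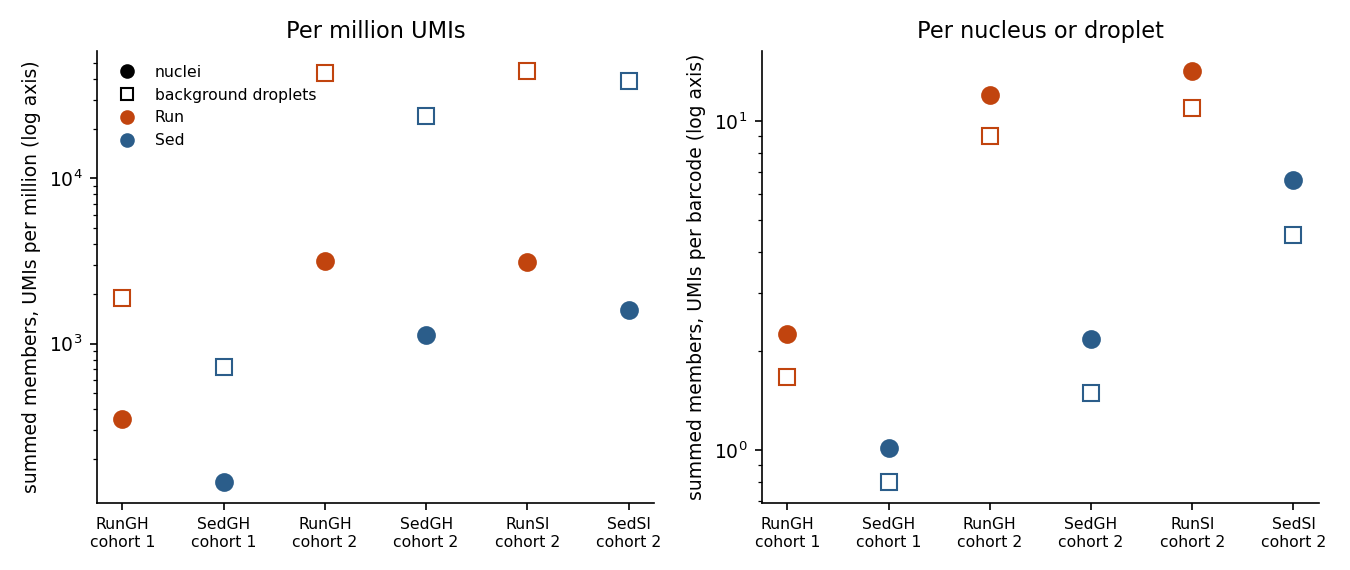
Summed level of the 10 transcripts in each library, in nuclei (filled circles) and background droplets (open squares), in CPM (left) and per nucleus or droplet (right), on log axes. In CPM the background lay far above the nuclei of each library, whereas per barcode both lay close together, at 1.27 to 1.47 times more in a nucleus than in a droplet.

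Complex IV, cytochrome c oxidase, takes its catalytic core from 3 mitochondrial genes. The level of mt-Co1 in nuclei was 57.6 CPM in RunGH and 16.5 CPM in SedGH of cohort 1, and 538 CPM in RunGH, 226 CPM in SedGH, 572 CPM in RunSI and 309 CPM in SedSI of cohort 2. For mt-Co2, which holds the site where cytochrome c gives up its electrons, the levels in the same order were 30.8, 9.96, 459, 164, 470 and 240 CPM. For mt-Co3, a core subunit with no redox centre, they were 69.7, 33.3, 835, 230, 778 and 306 CPM. In each of the 3 genes the lowest library of cohort 2 was SedGH, and it still lay above RunGH of cohort 1.

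The only selected gene of complex V, the ATP synthase, was mt-Atp6, which forms part of its proton channel. Its levels in nuclei, in the order RunGH and SedGH of cohort 1 and then RunGH, SedGH, RunSI and SedSI of cohort 2, were 41.8, 17.4, 429, 152, 440 and 240 CPM. For mt-Cytb, the one mitochondrial gene of complex III, they were 37.7, 17.8, 272, 87.9, 241 and 124 CPM. Both genes followed the order of the summed level, except that RunGH and RunSI of cohort 2 changed places for mt-Atp6.

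Complex I, NADH dehydrogenase, takes the proton-pumping subunits of its membrane arm from the mitochondrial genome. In the same order of libraries, mt-Nd1 was at 23.5, 8.99, 133, 54.1, 142 and 74.1 CPM in nuclei. For mt-Nd2 the levels were 32.5, 15.8, 214, 95.1, 211 and 131 CPM. For mt-Nd4 they were 32.4, 11.7, 219, 94.6, 228 and 133 CPM. These 3 genes were alike in that SedGH of cohort 1 was lowest and the 2 Run libraries of cohort 2 were highest. The level of mt-Nd4l, the smallest member, was 6.10, 1.48, 16.5, 13.1, 22.4 and 18.7 CPM, so that SedSI of cohort 2 lay above RunGH of cohort 2. The level of mt-Nd5, the longest member, was 19.2, 12.2, 29.3, 17.9, 35.1 and 22.0 CPM. For mt-Nd5 alone among the members the cohorts overlapped, since SedGH of cohort 2 lay below RunGH of cohort 1.

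As reads gather near the 3′ end, counts need not grow with gene length, and a scale per kilobase (kb) of gene lowers long genes. The order on that scale is not a ranking of transcript abundance, and in CPM mt-Co1 lay above mt-Co2 in each library. Compared per kb, mt-Co3 was the highest member in the nuclei of each library. It was at 42.5 to 88.9 CPM per kb in cohort 1 and 293 to 1065 CPM per kb in cohort 2. In 5 libraries the next places were held by mt-Co2 and mt-Atp6, which exchanged order and overlapped, at 240 to 688 and 223 to 646 CPM per kb in cohort 2. In SedGH of cohort 1 mt-Atp6 was followed by mt-Cytb and mt-Nd2, and mt-Co2 stood at 14.6 CPM per kb. The order of mt-Cytb and mt-Nd2 also changed between libraries, as did that of mt-Nd1 and mt-Nd4. The lowest place was held by mt-Nd5 in 5 libraries, at 9.82 to 19.2 CPM per kb in cohort 2, and by mt-Nd4l in SedGH of cohort 1, at 4.97 CPM per kb. Without the division by length, mt-Nd4l was the lowest member in each library.

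The makeup of the summed level differed between cohorts. In nuclei, mt-Nd5 was 5.46% and 8.38% of it in RunGH and SedGH of cohort 1, and 0.932% to 1.58% in the 4 libraries of cohort 2. For mt-Co2 the share was 8.77% and 6.87% in cohort 1 and 14.5% to 15.0% in cohort 2. The cohorts did not overlap for either gene, with mt-Nd5 holding the larger share in cohort 1 and mt-Co2 in cohort 2. Shares in background droplets were close to those in nuclei of the same library, with mt-Nd5 at 5.20% and 8.19% in cohort 1 and 0.934% to 1.41% in cohort 2. Over the 6 libraries, the 45 pairs of members had a median Pearson r of 0.991 in nuclei (lowest 0.860) and 0.996 in background droplets (lowest 0.971), values given as a description over libraries that share cohorts and depth.

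**Figure D2:**
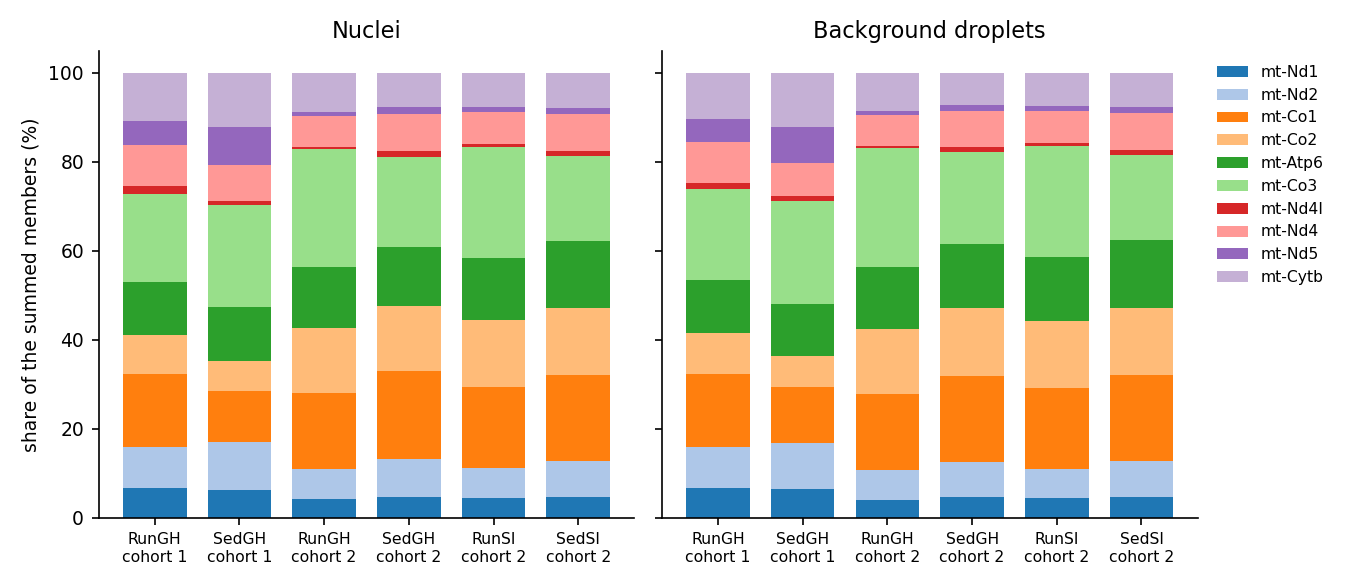
Share of each of the 10 genes in their summed UMIs (%), in nuclei (left) and background droplets (right) of each library, stacked in the order of the mitochondrial genome. The shares of mt-Nd5, mt-Cytb and mt-Nd1 were larger in the 2 libraries of cohort 1 and that of mt-Co2 was larger in the 4 libraries of cohort 2, alike in nuclei and background.

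The rule that selected the genes used the contrast of Run with Sed, and its values in the 3 pairs of libraries follow as a description. The log2 ratio of Run to Sed of the summed transcripts in nuclei was 1.27 (95% exact Poisson interval 1.231 to 1.320) in cohort 1 GH, 1.47 (1.444 to 1.496) in cohort 2 GH and 0.98 (0.958 to 0.993) in cohort 2 SI. The mean over the pairs was 1.24 ± 0.25 (SD, n = 3). Each of the 10 members was higher in Run in 3 of 3 pairs, with means from 0.68 for mt-Nd5 to 1.42 for mt-Co3. Over all 18934 genes tested in nuclei, edgeR called 0 (0%) for the maternal environment and 1602 had an unadjusted p under 0.05, and nothing is read from this for the members. The member with the widest spread was mt-Nd4l, at 2.05 in cohort 1 GH, 0.33 in cohort 2 GH and 0.26 in cohort 2 SI. The member with the narrowest was mt-Nd5, at 0.66, 0.71 and 0.68. The rule has no numerical threshold. Of the genes it left out, mt-Nd3 was at 0.95, 0.95 and 1.28, whereas mt-Atp8 was at 0.12, 0.18 and 0.18 and mt-Nd6, the only one on the other strand, at 1.18, -0.87 and -0.63.

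In background droplets the Run to Sed log2 ratio of the summed transcripts was 1.38 in cohort 1 GH, 0.88 in cohort 2 GH and 0.19 in cohort 2 SI, a mean of 0.82 ± 0.60 (SD, n = 3). The 3 complex IV genes, mt-Atp6, mt-Cytb and mt-Nd1 were higher in Run in 3 of 3 pairs there. The genes mt-Nd2, mt-Nd4 and mt-Nd5 were higher in 2 of 3 pairs, and mt-Nd4l in 1 of 3. The exceptions fell in cohort 2 SI for the first 3 genes, at -0.11, -0.01 and -0.20, and in both pairs of cohort 2 for mt-Nd4l, at -0.08 and -0.44. Per barcode, nuclei of RunGH held 2.22 times the members' UMIs of SedGH nuclei in cohort 1 and 5.49 times in cohort 2. Nuclei of RunSI held 2.14 times those of SedSI. Per background droplet the ratios of the same pairs were 2.09, 6.01 and 2.43, so on this scale the Run libraries were also higher without a nucleus. Depth differed as well, since over all genes a nucleus of cohort 2 held on average 3816 UMIs in RunGH and 1925 in SedGH. When the mean background droplet of each library was subtracted from its nuclei, 21.1% to 31.9% of the members' UMIs were left. This share depends on which droplets count as background, and no other choice was subtracted. In RunGH of cohort 2 the mean background droplet held 9.0 members' UMIs and a nucleus 12, whereas barcodes of 200 to 500 UMIs held 11.8. The remainder is therefore not read as free of background. What was left came to 105 CPM in RunGH and 36.3 CPM in SedGH of cohort 1, 831 and 370 CPM in RunGH and SedGH of cohort 2, and 758 and 525 CPM in RunSI and SedSI. The mean log2 ratio of the summed members was then 1.08 in place of 1.24, with the ratio in cohort 1 GH up from 1.27 to 1.53 and that in cohort 2 SI down from 0.98 to 0.53.

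A nucleus and an empty droplet of the same library held nearly the same number of these transcripts. The summed members numbered 2.2 UMIs per nucleus and 1.7 per background droplet in RunGH, and 1.0 and 0.80 in SedGH, of cohort 1. In cohort 2 they numbered 12 and 9.0 in RunGH, 2.2 and 1.5 in SedGH, 14 and 11 in RunSI, and 6.6 and 4.5 in SedSI. The ratio of nucleus to droplet was therefore 1.27 to 1.47, whereas over all genes it was 6.30 to 7.20 in cohort 1 and 18.3 to 35.9 in cohort 2. These ratios depend on the ranks taken as background. Single members ranged from 1.15 for mt-Co1 in SedGH of cohort 1 to 1.78 for mt-Nd5 in SedGH of cohort 2. Among the 10642 to 14543 genes with at least 100 UMIs in a library, all 10 members were in the lowest 1% by this ratio in 5 libraries and 9 of 10 were in SedGH of cohort 2.

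Among the smallest barcodes the members' UMIs rose with the total, and among larger ones they moved far less than the total. In RunGH of cohort 2, barcodes of 50 to 100 UMIs held 2.78 members' UMIs each, those of 100 to 200 UMIs 7.71, those of 200 to 500 UMIs 11.8 and those of 500 to 1000 UMIs 14.2. The number was 11.8 at 2000 to 5000 UMIs and 13.5 over 10000 UMIs. The members' share of UMIs was 3.75% to 4.42% up to 500 UMIs and fell to 0.356% and 0.114% in the last 2 of these bins. In SedSI the number rose from 3.22 to 5.86 and 9.42 over the 3 bins up to 500 UMIs, at shares of 3.83% to 3.92%. In RunGH of cohort 1 the members' UMIs per barcode were 2.29 at 1000 to 2000 UMIs, 2.28 at 2000 to 5000 and 2.58 over 10000 UMIs. Barcodes of 200 to 500 UMIs held 0.794 in that library. In SedGH of cohort 1 the number rose from 0.357 at 200 to 500 UMIs to 0.968 at 1000 to 2000 and was 1.09 over 10000 UMIs. The widest range above 1000 UMIs was in SedSI of cohort 2, from 5.49 at 1000 to 2000 UMIs to 9.56 over 10000 UMIs, while the members' share fell from 0.366% to 0.0820%.

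**Figure D3:**
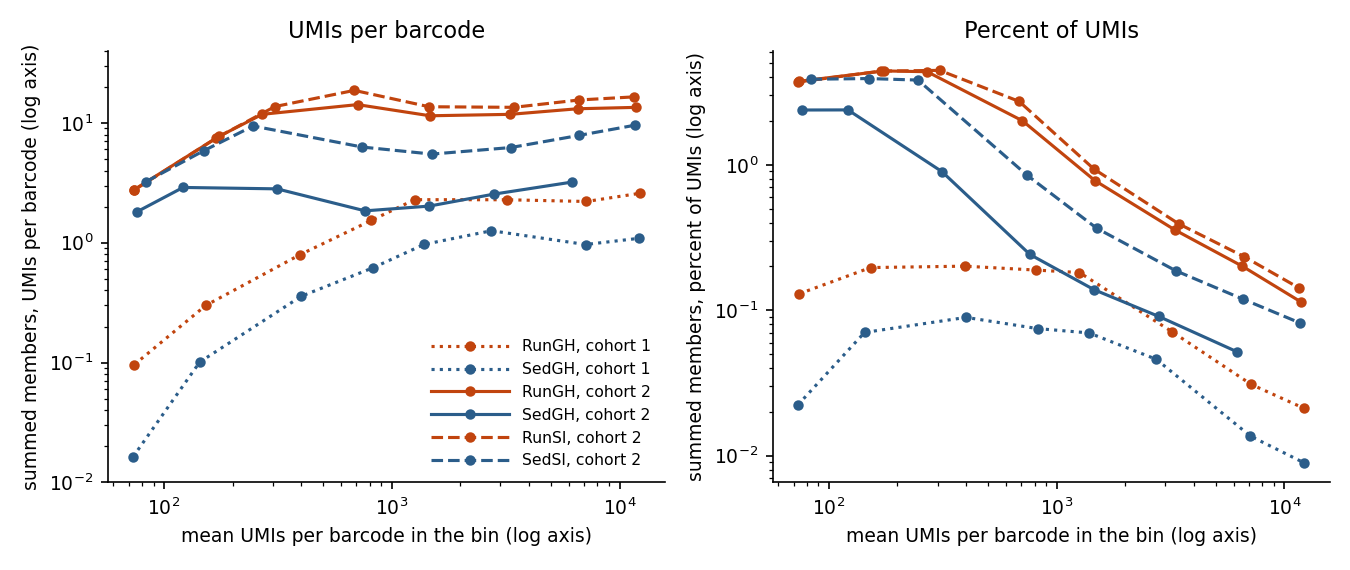
UMIs of the 10 transcripts per barcode (left) and as a percent of all UMIs (right) in barcodes binned by size, 1 line per library, on log axes. From 1000 UMIs upward the number per barcode in RunGH of cohort 2 stayed between 11.5 and 13.5, while the percent fell from 0.779% to 0.114%, and in SedSI the number rose from 5.49 to 9.56.

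Background droplets were tested against nuclei in a fit over all genes with the library as a block. All 10 members were higher in background droplets, where 27.6% of the 19331 genes tested were higher. The log2 differences in CPM ran from 3.37 ± 0.33 (SE) for mt-Nd4l, adjusted p = 0.00113 (edgeR quasi-likelihood test, Benjamini-Hochberg), to 3.50 ± 0.39 for mt-Co2, adjusted p = 0.00115. The other mitochondrial protein-coding genes were also higher, at 3.42 for mt-Nd3, 3.12 for mt-Nd6 and 3.59 for mt-Atp8. The fit gives a common difference for all libraries, whereas the gap was wider in cohort 2. The summed members were at 145 to 351 CPM in nuclei and 721 to 1879 CPM in background in cohort 1. In cohort 2 they were at 1135 to 3145 and 23716 to 44460 CPM. Taken per barcode, a scale added after the data were seen on which the median of all genes moved from -0.09 to -3.93, all 10 members had a negative difference, -0.40 to -0.55, and mt-Nd4l passed the threshold (adjusted p = 0.0386), where 19145 of 19331 genes were called lower and 0 higher.

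Other gene lists place the members on this scale. Summed over the list, the 75 nuclear-encoded subunits of the respiratory chain held 2.33 to 4.99 times as many UMIs in a nucleus as in a droplet, with Ndufs4, named after its values were seen, at 4.44 to 25.2, and 73 of 75 were higher in background on the CPM scale, with a median log2 difference of 2.51 against -0.09 over all genes. They included Atp5e, a subunit of the ATP synthase, at 3.29 ± 0.37, and Uqcrfs1 and Uqcrq, subunits of complex III, at 2.95 ± 0.32 and 2.80 ± 0.31 (SE). The summed UMIs of the abundant cytoplasmic mRNAs had ratios of 2.60 to 3.92, those of the 4 haemoglobin mRNAs of red blood cells 1.28 to 1.52, and those of 8 nuclear-retained RNAs such as Malat1 and Meg3 5.83 to 44.8. Single genes of a list could lie outside these ranges. Snap25, of the synaptic release machinery and in nuclei the most abundant cytoplasmic mRNA listed, did so at 4.09 to 29.0, and Hbb-bs, of haemoglobin, at 1.03 to 1.75. The summed members, at 1.27 to 1.47, overlapped the summed haemoglobin mRNAs. The mitochondrial RNA list held 35 genes, mainly of mitochondrial RNA synthesis and processing. It also held genes of mitochondrial DNA, such as Ssbp1, and regulators of transcription in the nucleus, such as Ppargc1b and Nrf1. Of the 35, 13 were higher in background, beside 27.6% of all genes. Among them were Slirp, which stabilizes mitochondrial mRNAs, at 2.05 ± 0.39, Mterf1a at 1.09 ± 0.17 and Trmt10c, of the enzyme that cuts tRNA 5′ ends, at 0.94 ± 0.14. A further 6 of the 35 were lower, beside 5184 of all 19331 genes, led by Ppargc1b, a coactivator of mitochondrial genes, at -0.90 ± 0.12, Polrmt, the mitochondrial RNA polymerase, at -0.68 ± 0.15 and the transcription factor Nrf1 at -0.78 ± 0.22. The call for Nrf1 was lost without any 1 library of cohort 2 (adjusted p from 0.0563 to 0.0602).

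Most nuclei of each library held at least 1 UMI of a member. The share was 86.9% (95% exact interval 86.1 to 87.6) in RunGH and 60.6% (59.2 to 61.9) in SedGH of cohort 1. In cohort 2 it was 85.8% in SedGH, 99.2% in SedSI and over 99.9% in both Run libraries. Background droplets, which hold no nucleus by their rank, had shares of 79.4% and 53.9% in cohort 1 and 74.9% to 97.7% in cohort 2. Nuclei were above droplets in each library, at median depths of 1637 to 6250 against 67 to 1112 UMIs, and the shares are not read as expression. With each nucleus thinned to 1000 UMIs, the shares in nuclei were 33.7% in RunGH and 15.2% in SedGH of cohort 1 and 94.1% in RunGH, 67.3% in SedGH, 94.3% in RunSI and 80.7% in SedSI of cohort 2. The thinning left out 882 nuclei of SedGH in cohort 2 and none elsewhere. A limit of 1% mitochondrial UMIs, as in the methods, would remove 290 nuclei of RunGH and 229 of RunSI in cohort 2, but 1 of SedGH, 3 of SedSI and none of cohort 1.

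All 10 members were higher in cohort 2 than in cohort 1 in nuclei, in a fit over the 6 libraries with maternal environment and housing as terms. Of the 18934 genes tested, 20.6% were higher and 18.2% lower. The difference was largest for mt-Co2, at 3.79 ± 0.20 on the log2 scale (SE; adjusted p = 0.000433, edgeR quasi-likelihood test), followed by mt-Co1 at 3.31 ± 0.25, mt-Atp6 at 3.09 ± 0.17 and mt-Co3 at 3.04 ± 0.18. Among complex I genes it was 2.70 ± 0.20 for mt-Nd4, 2.49 ± 0.15 for mt-Nd2, 2.38 ± 0.16 for mt-Nd1 and 1.92 ± 0.46 for mt-Nd4l, and for mt-Cytb 2.44 ± 0.17. It was smallest for mt-Nd5, at 0.43 ± 0.12 (adjusted p = 0.0311), and mt-Nd5 lost the call without any 1 library of cohort 2 (adjusted p from 0.117 to 0.165). The difference for mt-Nd4l was 1.19 without SedGH and 3.07 without RunGH of cohort 1, and it kept its call. Of the genes outside the selection, mt-Nd3 was higher by 1.61 ± 0.15, mt-Atp8 was lower in cohort 2, at -1.59 ± 0.18 (adjusted p = 0.0024), and mt-Nd6 was at 0.74 ± 0.54 (adjusted p = 0.31). In 9 of 10 members each library of cohort 2 lay above both libraries of cohort 1, the exception being mt-Nd5.

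In background droplets all 10 members were again higher in cohort 2, where 34.8% of the 15926 genes tested were higher and 35.7% lower. The differences ran from 1.78 ± 0.25 for mt-Nd5 to 5.20 ± 0.53 for mt-Co2 (SE), the largest adjusted p being 0.000129 (edgeR). As in nuclei, mt-Atp8 differed from its neighbour mt-Atp6, at 0.09 ± 0.24 (adjusted p = 0.76) against 4.59 ± 0.49. Scaling by library totals alone moved the median of all genes from 0.0035 to 0.16 in nuclei and from -0.030 to 0.39 in background droplets and turned the split of higher to lower calls from 3893 and 3437 to 4624 and 2020 in nuclei, and from 5542 and 5681 to 7021 and 3902 in background droplets. All 10 members stayed higher in both. Per barcode, where the median of all genes was -1.10, the 3 complex IV genes, mt-Atp6 and mt-Nd4 were still higher in nuclei, at 1.63 to 2.72, where 86 of 18934 genes were higher and 3502 lower, and mt-Nd5 turned to -0.69 (adjusted p = 0.41). In background droplets on that scale mt-Co2 alone among the members passed, at 2.60 (adjusted p = 0.042), where 68 of 15926 genes were higher and 10725 lower. Cohort cannot be told apart from prior tube testing, the choice of males by rank, the separate snRNA-Seq experiment of each cohort, or depth. Median UMIs in background droplets were 917 to 1112 in cohort 1 and 67 to 264 in cohort 2. In nuclei they were 5585 to 6250 in cohort 1 and 1637 to 3971 in cohort 2.

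**Figure D4:**
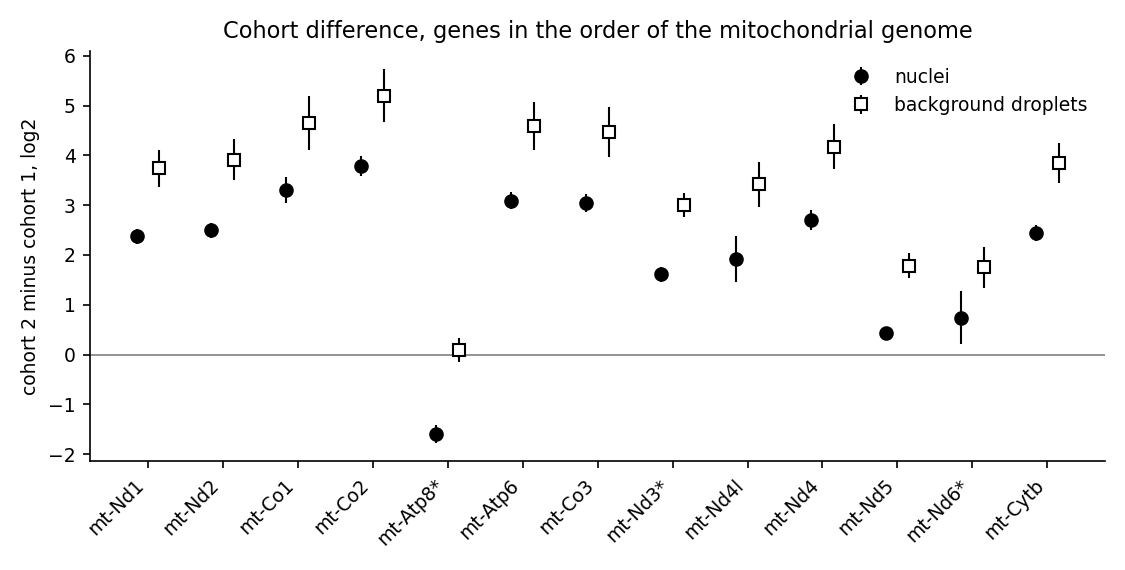
Log2 difference of cohort 2 minus cohort 1 for each mitochondrial protein-coding gene on the CPM scale in nuclei (filled circles) and background droplets (open squares), with bars for the standard error, in the order of the mitochondrial genome, and asterisks on the 3 genes outside the selection. The difference was largest for mt-Co2, at 3.79 and 5.20, and within the selection smallest for mt-Nd5, at 0.43 and 1.78, whereas mt-Atp8 lay at -1.59 and 0.09.

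Among the genes of the wider pathway that were not selected, the shares called between cohorts are read against the 20.6% of all genes that were higher and the 18.2% that were lower. In nuclei 67 of 75 nuclear-encoded subunits were higher in cohort 2 and none was lower, with a median of 1.64 against 0.00 over all genes. Cox5b and Cox8a, of complex IV, rose by 3.20 ± 0.14 and 2.74 ± 0.11, and Ndufb9, of complex I, by 2.66 ± 0.12 (SE). Of the 35 genes on the mitochondrial RNA list, 11 were higher and 4 lower, together near the share of all genes. The higher ones were led by Trmt10c at 1.79 ± 0.18, Slirp at 1.45 ± 0.19 and Mterf2 at 1.38 ± 0.15. The lower ones included Ppargc1b at -0.67 ± 0.11, Lrpprc, the partner of Slirp, at -0.42 ± 0.09 and Elac2, which cuts tRNA 3′ ends, at -0.88 ± 0.20. Each of these 3 lost its call in a fit without 1 library of cohort 2, Ppargc1b without RunGH (adjusted p = 0.0548), Lrpprc without any 1 of the 4 (0.0638 to 0.115) and Elac2 without SedGH (0.0878) or RunSI (0.0516). The cytoplasmic mRNAs were higher in 16 of 17 cases and the 4 haemoglobin mRNAs in 4 of 4, at a median of 4.85, whereas of 8 nuclear-retained RNAs 5 were lower and 2 higher, Malat1 at 1.65 ± 0.19 and Snhg11, named after its values were seen, at 0.63 ± 0.13. Malat1, the most abundant of them, was at 28022 and 30670 CPM in cohort 1 and 93912 to 116938 CPM in cohort 2. The part of background RNA in these differences was not tested. They are in CPM, and the lists were not counted per barcode. Single genes were, namely the mitochondrial protein-coding genes and the subunit and mitochondrial RNA genes named here. Among these, 11 lost their call per barcode, 9 stayed and 2 changed sign.

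Social isolation gave no call. In nuclei, 0 of 10 members and 0 of 18934 genes (0%) passed the threshold for SI against GH, with 1 member (mt-Nd5) and 164 genes at an unadjusted p under 0.05, and DESeq2 also called 0 genes. The members' log2 differences ran from 0.15 ± 0.16 for mt-Co3 to 0.51 ± 0.43 for mt-Nd4l (SE), with a median of 0.29 against 0.00 over all genes. The summed level was 3145 CPM in RunGH and 3140 CPM in RunSI of cohort 2, and 1135 CPM in SedGH and 1597 CPM in SedSI, so the Run libraries lay close together and SedSI lay above SedGH. The median of the members was 0.00 without SedSI and 0.54 without RunSI. It was 1.06 with no replicate block, that is with no cohort term, and the counts of calls stayed at 0.

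In background droplets, 0 of 10 members and 0 of 15926 genes (0%) passed for SI against GH, with 1 member (mt-Nd5) and 238 genes at an unadjusted p under 0.05 and 0 genes by DESeq2. The members' median was 0.47, and it was -0.04 without SedSI and 0.90 without RunSI. Without the RunGH or without the SedGH library of cohort 1, 9 of 10 members passed, mt-Co3 being the exception, at 0.32 to 0.65, among 96 and 95 genes called. In such a fit cohort 1 is a single library, and the spread rests on cohort 2 alone.

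Cell classes were rebuilt from clusters made without any mitochondrial gene and named from marker genes, with limits on cluster size and depth. A glial cluster deeper than the median nucleus of its library was left unnamed. Pyramidal nuclei held 303 and 125 CPM of the summed members in RunGH and SedGH of cohort 1. In cohort 2 they held 2898 CPM in RunGH, 1092 CPM in SedGH, 2905 CPM in RunSI and 1497 CPM in SedSI. Astrocytes, the glia that supply neurons with metabolites, held 683 and 291 CPM in cohort 1 and 7221, 2713, 7639 and 3946 CPM in cohort 2 in the same order, which was 2.26 to 2.64 times the pyramidal level of the same library. Against pyramidal nuclei, all 10 members were higher in astrocytes, where 36.1% of the 10782 genes tested were higher. The log2 differences ran from 1.14 ± 0.11 for mt-Nd1 (adjusted p = 4.36e-14) to 1.33 ± 0.11 for mt-Nd4 (SE; adjusted p = 5.96e-16, edgeR).

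Oligodendrocyte precursors were also higher in all 10 members, at 0.76 to 0.98, where 19.8% of genes were higher. Their ratio to pyramidal nuclei was 1.69 to 2.35. Oligodendrocytes, which form myelin, were higher in 9 members, at 0.42 to 0.73, with 11.8% of genes higher, and mt-Nd5 was at 0.15 ± 0.27. The count in oligodendrocytes fell to 6 members without RunSI, without SedSI and in nuclei with at most 1% mitochondrial UMIs, and to 4 with no filter on low counts. Among inhibitory neurons, the class marked by Adarb2 was higher in 8 members (16.9% of genes), led by mt-Nd2 at 0.63 ± 0.11 (adjusted p = 4.54e-06), with mt-Nd5 and mt-Nd4l not past the threshold. Fast-spiking PV neurons were higher in 3 members (22.5% of genes), mt-Nd1, mt-Nd2 and mt-Co2, at 0.27 to 0.36, and SST neurons in 3 members (17.5% of genes), mt-Nd2, mt-Co1 and mt-Nd4, at 0.31 to 0.38. The counts in PV and SST neurons fell to 1 member each without RunGH or without RunSI of cohort 2, and in SST neurons also without RunGH of cohort 1 or SedSI, and rose to 8 and 7 members with scaling by library totals alone. Microglia were named in cohort 2 alone, and 0 of 10 members passed there (13.2% of genes), with differences of -0.08 to 0.19, no member at an unadjusted p under 0.05 and 1 member called by DESeq2.

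Scaling by library totals alone also changed the split of all genes called higher and lower, from 2426 and 2497 to 3385 and 2013 in PV neurons, from 1890 and 2104 to 2819 and 1685 in SST neurons, and from 1819 and 1971 to 2464 and 1597 in the Adarb2 class. In oligodendrocyte precursors it went from 2140 and 2305 to 3148 and 1515, in oligodendrocytes from 1270 and 2065 to 1898 and 1135, and in microglia from 1421 and 1635 to 2367 and 371. On that scale the members higher numbered 10 in precursors, 9 in oligodendrocytes, 8 in the Adarb2 class and 2 in microglia.

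The classes also differed in UMIs per nucleus, so the members were counted per nucleus as well. Median UMIs were 955 to 4473 in astrocytes, 886 to 3740 in oligodendrocyte precursors and 1696 to 6815 in pyramidal nuclei. The naming rule kept deeper clusters out of the glial classes, and its part in these medians and in the CPM differences was not tested. Counted per nucleus, with the median of all genes in astrocytes at -0.76, 5 members were higher in astrocytes than in pyramidal nuclei, mt-Nd4, mt-Nd2, mt-Co1, mt-Co2 and mt-Atp6, at 0.29 to 0.39, where 1494 of 10782 genes were higher and 7312 lower. On that scale 2 members, mt-Atp6 and mt-Nd4, were higher in oligodendrocytes, both at 0.35, where 858 of 10782 genes were higher and 4404 lower. By edgeR 0 members were higher in the other 5 classes, where 922 to 1464 genes were. The summed members per nucleus in RunGH of cohort 2 were 11.8 in pyramidal nuclei, 12.3 in microglia, 13.4 in astrocytes and 13.5 in oligodendrocyte precursors. Over all classes and libraries, a nucleus held 1.02 to 1.82 times the members' UMIs of a background droplet of its library.

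**Figure D5:**
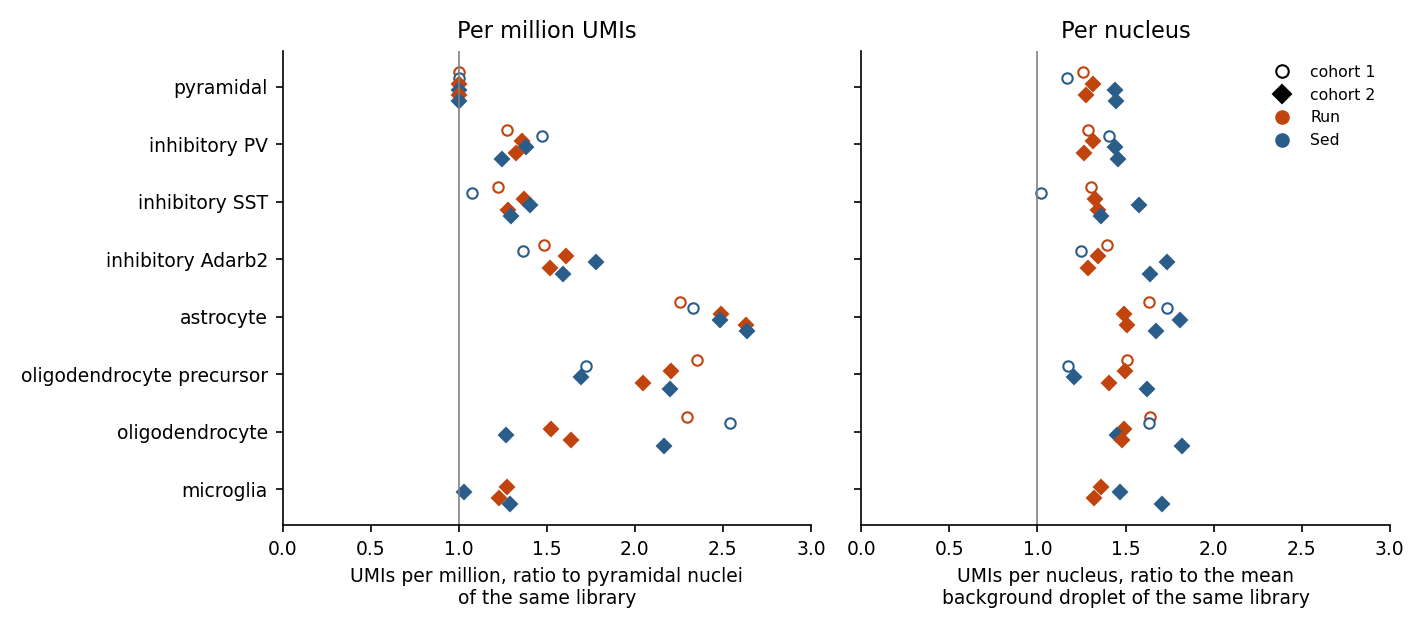
Summed level of the 10 transcripts by cell class in each library, as the ratio to pyramidal nuclei in CPM (left) and as the ratio of a nucleus to the mean background droplet (right), with open circles for cohort 1 and diamonds for cohort 2. Astrocytes lay at 2.26 to 2.64 times the pyramidal level in CPM, while per nucleus all classes lay between 1.02 and 1.82 times the background droplet.

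The Run to Sed ratios described above were present in each class, again with no test. In pyramidal nuclei the log2 ratio of the summed members was 1.28 in cohort 1 GH, 1.41 in cohort 2 GH and 0.96 in cohort 2 SI. In PV neurons it was 1.07, 1.39 and 1.04, in astrocytes 1.23, 1.41 and 0.95, and in microglia, which were named in cohort 2 alone, 1.71 and 0.89. The smallest was 0.56 (95% exact Poisson interval 0.41 to 0.71), in oligodendrocytes of cohort 2 SI, and the largest 1.79 (1.33 to 2.29), in oligodendrocyte precursors of cohort 2 GH, where SedGH had 38 UMIs.

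The nuclear genes of the pathway are set beside the members for PV neurons and astrocytes. In PV neurons 3 of 10 members were higher than in pyramidal nuclei, beside 22.5% of all genes, and that count changed with the processing. Of 74 nuclear-encoded subunits, 54 were higher there and none lower, with a median of 0.49 against 0.02 over all genes. They were led by Cox7b at 1.23 ± 0.10, Cox5a at 0.93 ± 0.11 and Atp5a1 at 0.86 ± 0.10 (SE). Of 20 genes tested on the mitochondrial RNA list, 10 were higher, beside 22.5% of all genes. Among them were Ppargc1a, a master coactivator of mitochondrial biogenesis, at 1.63 ± 0.10, Fastkd1 at 1.29 ± 0.21 and Ppargc1b at 0.55 ± 0.11. In contrast, Nrf1 was lower, at -0.25 ± 0.10, a call lost without SedSI (adjusted p = 0.0916). In astrocytes 71 of 74 subunits were higher, with a median of 0.84, among them Uqcrh at 1.23 ± 0.13, Ndufa4 at 1.20 ± 0.12 and Cox8a at 1.12 ± 0.11. Of the genes on the mitochondrial RNA list, 7 of 20 were higher in astrocytes and 2 lower, beside the 36.1% of all genes that were higher. Among them Ppargc1a, Nrf1 and Ssbp1, which coats single-stranded mitochondrial DNA, were higher, at 1.36 ± 0.11, 1.21 ± 0.09 and 1.12 ± 0.17. Ppargc1b was lower, at -1.63 ± 0.15, as was Lrpprc at -0.43 ± 0.11. These class differences are in CPM, and the lists were not counted per nucleus. Per nucleus, 3 of the genes named for astrocytes lost their call and 5 kept it. Of those named for PV neurons, 1 lost its call and 6 kept it. For the maternal environment in nuclei, edgeR called 0 of 75 subunits, with 47 at an unadjusted p under 0.05 and a median log2 difference of 0.32. It called 0 of 35 genes on the mitochondrial RNA list, with 2 at an unadjusted p under 0.05 and a median of -0.03. Of all 18934 genes, 1602 had an unadjusted p under 0.05, and the abundant cytoplasmic mRNAs lay with the subunits, 12 of 17 at an unadjusted p under 0.05 and a median of 0.39. In background droplets it called 0 of both lists, with 0 and 2 at an unadjusted p under 0.05.

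Over 46 sums of UMIs by library and class, the genes whose level was most like that of the summed members among 12849 genes were Ubb, a ubiquitin precursor (Pearson r = 0.97), Tmsb4x, an actin-binding peptide (0.97), the ribosomal protein genes Rps29 and Rplp1 (both 0.96) and Atp6v0c, of the vacuolar proton pump (0.96). These sums share libraries and depth, and the values are a description. The level of Ubb in nuclei was 12.7 CPM in RunGH and 7.04 CPM in SedGH of cohort 1, and 182, 91.5, 150 and 93.4 CPM in RunGH, SedGH, RunSI and SedSI of cohort 2. It was higher in Run in each pair and higher in each library of cohort 2 than in cohort 1. Ubb was picked for its likeness to the summed members over these same libraries, so this shared order is not a separate observation. In background droplets Ubb was at 61.8 and 14.3 CPM in cohort 1 and 2266, 1659, 1960 and 2035 CPM in cohort 2. In cohort 2 SI the Sed library was therefore the higher one there.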

How the data were processed

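The deposited values are raw UMI counts per barcode and gene. Per the labels, the authors made 10x Chromium 3′ V3 libraries from nuclei and counted reads with Cell Ranger 6.0.0 against mm10, and per the methods introns were included. The matrices hold all barcodes, with no cell calling, no doublet removal and no removal of free RNA. Each library has its own matrix; cell classes were rebuilt here.

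The UMI minimum of a library was the 99th percentile of its largest barcodes, as many as the nuclei the study kept from it, divided by 10. Cohorts were clustered apart with scanpy 1.11.5 on Pearson residuals (theta 100) of 3000 genes without mitochondrial genes, with 35 components, 20 neighbours and Leiden resolution 0.6 (leidenalg 0.10.2). Thresholds for naming clusters were adjusted after the clusters were seen. Doublets were marked (6% expected) and kept, their removal being an alternative. A class needed 20 nuclei in a library to be summed.

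Counts were summed per library and compartment, or per library and class, and tested over all genes with the quasi-likelihood test of edgeR 4.0.16 under R 4.3.3, after filterByExpr and TMM scaling, with Benjamini-Hochberg adjustment at 0.05. The model held terms for cohort, for the dam's wheel and for housing, which left 2 degrees of freedom, or, for background against nuclei and for classes, the library as a block. The cohort is the replicate number of the labels, so the replicate block is part of this design. The study's own test treats nuclei as replicates and was not used. Alternatives were DESeq2 1.42.0, other scalings and filters, other rules for nuclei and droplets, and leaving out each library. Counting per barcode was added after the data were seen. Simulated data used the same dispersion for every gene, not one estimated from these libraries, with 100 genes changed by a log2 size of 1 and 100 by 2 among 18934. On them the housing test in nuclei recovered 61% and 96%, and the cohort test 57% and 93%.

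The 10 genes and the gene lists were chosen with earlier results of these data known. Named genes are all mitochondrial protein-coding genes, up to 3 genes per direction with the lowest adjusted p in the respiratory and mitochondrial RNA lists, the 2 genes most abundant in nuclei of the cytoplasmic, nuclear-retained and haemoglobin lists, and the 5 genes with the highest r of log2(CPM + 1) with the summed members among genes with at least 500 UMIs. Gene positions and sequences came from GENCODE M21.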

Additional observations from a re-analysis of the deposited data

Results flagged for a closer look

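In 4 cases the Run to Sed log2 ratio of a mitochondrial gene in CPM had one sign in cohort 1 and the other in both pairs of cohort 2. The difference was not tested. In nuclei, mt-Nd6 was at 1.18 in cohort 1 GH, -0.87 in cohort 2 GH and -0.63 in cohort 2 SI. In background droplets it was at 0.86, -1.04 and -1.40. The 2 others were seen in background droplets, where mt-Nd4l was at 1.80, -0.08 and -0.44 and mt-Atp8 at 0.26, -0.76 and -0.94. Of these genes only mt-Nd4l is a member, and the interval of its -0.08 in cohort 2 GH was -0.206 to 0.049. Per barcode the pattern was not kept. In the same order of pairs, mt-Nd6 was then at 1.05, 0.12 and -0.51 in nuclei and at 0.54, 0.67 and -0.31 in background droplets. There mt-Nd4l was at 1.49, 1.63 and 0.66. For mt-Atp8 the signs were turned around, at -0.055, 0.95 and 0.15.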

How the results depend on the processing

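Each group has 1 library per cohort and the fits for cohort and housing had 2 residual degrees of freedom, so that differences could be missed. The simulated data set the same spread for every gene, and the housing test in nuclei still recovered only 61% of changes of log2 size 1. The members' standard errors for housing reached 0.43 in nuclei and 0.47 in background droplets, so the recovery does not bound what was missed for them. Of the counts of calls and mean Run to Sed ratios that answer a comparison, 226 stayed and 51 moved under an alternative. A count stayed if within 1.5 times, and a mean ratio if within 1 SD. Of the values for single genes and for class medians and totals, 1179 stayed and 38 moved. A further 48 lost a call, 2 gained one and 28 changed sign. The replicate block is the cohort term. With no replicate block the members' median for SI against GH was 1.06 in nuclei and 1.36 in background droplets, and no member was called. The cause of the shifts below was not tested, except that counting per barcode changes the scale itself.
For SI against GH in nuclei, leaving out 1 library gave 0 to 27 genes called, and cohort 2 alone gave 2. In background droplets it gave 0 to 96 genes and 0 to 9 members, and no filter on low counts gave 4 genes. For the cohorts in nuclei, leaving out 1 library gave 3873 to 9777 genes. Per barcode, 3588 genes and 5 members were called in nuclei and 1 member in background droplets. For background against nuclei, leaving out 1 library gave 6855 to 12021 genes, and per barcode 19145 genes, 0 members higher and 1 lower.
PV neurons were higher in 1 member with doublets removed and at resolution 1, in 1 to 3 when 1 library was left out, in 8 with RLE factors and with library totals, in 7 by DESeq2 and in 0 with no filter and per nucleus. SST neurons were higher in 1 and 1, in 1 to 3, in 6 and 7, in 6 by DESeq2 and in 0 and 0. With no filter the Adarb2 class was higher in 5 and oligodendrocytes in 4, and per nucleus in 0 and 2. Astrocytes were higher in 5 and precursors in 0 per nucleus. Microglia were higher in 1 with RLE factors, 2 with library totals and 1 by DESeq2.
Signs turned per barcode for mt-Nd5 (-0.69) and mt-Nd6 (-0.30) between cohorts in nuclei and for mt-Nd5 (-0.87), mt-Nd6 (-0.81) and mt-Atp8 (-2.55) in background droplets. Without SedGH of cohort 1, mt-Nd6 was at -0.11 in nuclei (up to 1.92 when 1 library was left out) and mt-Atp8 at -0.39 in background droplets (up to 0.62), where mt-Atp8 was also at -0.12 without SedGH of cohort 2 and -0.031 over the barcodes from 30 UMIs to the UMI minimum. Background against nuclei turned per barcode for mt-Co1 (-0.43), mt-Co2 (-0.40), mt-Co3 (-0.42), mt-Atp6 (-0.42), mt-Cytb (-0.49), mt-Nd1 (-0.45), mt-Nd2 (-0.49), mt-Nd4 (-0.48), mt-Nd5 (-0.51), mt-Nd4l (-0.55), mt-Nd3 (-0.49), mt-Nd6 (-0.78), mt-Atp8 (-0.27), Uqcrfs1 (-0.98), Uqcrq (-1.11), Atp5e (-0.62), Trmt10c (-2.95), Mterf1a (-2.80) and Slirp (-1.86).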
